A study of Rattus norvegicus with 8 samples.

Results

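Muscle glycogen genes were compared between rats fed a whey protein hydrolysate and rats fed amino acids after swimming. The 9 genes were Gyg1, Ugp2, Gys1 and Gbe1 for synthesis, Pygm, Phka1 and Phkg1 for breakdown, and Ppp1r3a and Ppp1r3c for phosphatase targeting. Members were the probe sets whose only gene symbol in the platform annotation was one of these genes. They came to 11 of the 31042 probe sets tested and covered 8 of the 9 genes. Pygm had 3 probe sets, Phka1 had 2, and the other 6 measured genes had 1 each. No probe set carried Ppp1r3c as its only symbol, and that gene was not analysed here.

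The 8 arrays each held epitrochlearis, a small forelimb muscle, from 1 male Sprague-Dawley rat aged 6 weeks. All rats had 3 days of swimming practice and 5 g of restricted diet the day before, and then swam for 2 h. Straight after swimming each was given a meal by stomach tube, sized at 44 kJ or some 15% of daily energy needs. It held carbohydrate with whey protein hydrolysate, which is whey protein cut into peptides, in the WPH group (n = 4), or with an amino acid mixture in the AAM group (n = 4). Both groups swam and both were given carbohydrate, so neither the effect of swimming nor that of the carbohydrate was measured. The sources used here name neither the barrel of each rat nor any array batch, and such differences and the meal cannot be told apart. The time from meal to sampling is likewise not given.

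Glycogen is the branched glucose store of muscle. Glycogenin starts a chain, glycogen synthase lengthens it from UDP-glucose and branching enzyme adds the branches, while glycogen phosphorylase releases glucose 1-phosphate once phosphorylase kinase has switched it on. Contraction empties the store, and carbohydrate taken after exercise refills it. Protein phosphatase 1, held on the glycogen particle by targeting subunits, activates the synthase and inactivates phosphorylase and its kinase. These enzymes are set mostly by phosphorylation and by metabolites, which expression arrays do not measure.

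Promoter sequence is shown for the muscle phosphorylase gene Pygm, which had the largest standardized difference among the members, for its opposing enzyme Gys1, and for Ppp1r3a, which had the lowest. Each window runs from 250 bases before to 50 bases after the annotated gene start, 5′ to 3′ on the gene's own strand, in RefSeq's GRCr8 assembly. Pygm lies at chr1:213119555-213119854 on the plus strand, Gys1 at chr1:105051666-105051965 on the plus strand and Ppp1r3a at chr4:43946187-43946486 on the minus strand. Capitals mark the matches to the motifs searched.
Pygm: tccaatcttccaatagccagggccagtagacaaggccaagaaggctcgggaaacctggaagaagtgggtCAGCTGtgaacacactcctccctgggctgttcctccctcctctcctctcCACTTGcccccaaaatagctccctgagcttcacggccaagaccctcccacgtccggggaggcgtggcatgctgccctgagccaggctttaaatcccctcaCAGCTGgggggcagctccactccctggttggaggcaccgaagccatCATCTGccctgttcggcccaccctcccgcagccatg
Gys1: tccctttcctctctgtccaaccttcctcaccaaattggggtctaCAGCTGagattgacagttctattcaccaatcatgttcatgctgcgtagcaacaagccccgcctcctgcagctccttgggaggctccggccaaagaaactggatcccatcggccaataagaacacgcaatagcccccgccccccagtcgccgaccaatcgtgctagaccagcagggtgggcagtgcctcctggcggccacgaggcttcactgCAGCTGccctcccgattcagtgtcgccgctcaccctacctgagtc
Ppp1r3a: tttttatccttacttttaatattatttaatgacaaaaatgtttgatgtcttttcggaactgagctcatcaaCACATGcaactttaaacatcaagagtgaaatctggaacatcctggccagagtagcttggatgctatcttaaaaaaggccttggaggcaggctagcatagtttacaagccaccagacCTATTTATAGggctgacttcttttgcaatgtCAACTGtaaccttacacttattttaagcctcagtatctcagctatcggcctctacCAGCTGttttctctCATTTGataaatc

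The motifs searched on both strands were the E-box CANNTG that myogenic factors bind, its CACGTG form, a MEF2-like element (CTA and TAG with any 4 bases between), the cyclic AMP response element TGACGTCA, a forkhead element TGTTTAC and the TATA element TATAAA. The CACGTG form is also counted as an E-box. An E-box was found in 8 of the 9 member promoters, all but that of Ugp2, and in 72.1% of all 33469 promoters of this length. Pygm and Ppp1r3a held 4 E-boxes each and Gys1 held 2. The MEF2-like element occurred in 1 of the 9, that of Ppp1r3a, 63 bases before the start, against 3.84% of all promoters. It overlapped a TATA element there, which lay on the opposite strand, 60 bases before the start. Gbe1 held the only other TATA element of the 9, at +12 and so after the start, against 14.2% of all promoters. The CACGTG form occurred in Gyg1 and Ppp1r3c, against 6.42% of all promoters, and the cyclic AMP and forkhead letters were in none of the 9 windows (1.83% and 3.78% of all). These matches describe the letters alone.

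Differences between the arrays are printed in millionths of a unit on the authors' deposited log2-like scale, as deviations from a probe set's mean over the 8 arrays. The deposited differences are far smaller than usual log2 differences, with a median SD over the 8 arrays of 3.69 millionths per probe set. They cannot be read as fold changes. To put members on 1 footing, WPH minus AAM was divided by the SD pooled within the groups; this standardized difference is given with its 95% interval. All p-values are two-sided. Adjusted p-values are from limma over all 31042 probe sets, where 0 probe sets, or 0%, were below 0.05 and 1110, or 3.58%, had an unadjusted p below 0.05.

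None of the 11 probe sets had an adjusted p below 0.05, and each had an adjusted p of 0.9998. At an unadjusted p below 0.05 there was 1, for Pygm, and the other 10 had unadjusted p-values from 0.103 to 0.91. The WPH and AAM arrays overlapped for each of the 11, while they did not overlap for 2.23% of all probe sets. Taking 1 probe set per gene, that of the highest mean level, 5 of the 8 genes had a higher mean after WPH, against 46.1% of all 14217 named genes. The median standardized difference was 0.31 over the 8 genes and -0.06 over all named genes. By role, 2 of 4 synthesis genes, 3 of 3 breakdown genes and 0 of 1 targeting genes had the higher mean after WPH. These directions depended on the scaling: with each array centred on its median, Phka1 (-0.14), Gyg1 (-0.47) and Gbe1 (-0.53) turned, leaving 2 of 8 genes higher against 11.2% of all named genes. Centring lowered every difference by 11.7 millionths, the amount by which the WPH array medians exceeded the AAM ones. Any smaller positive difference therefore had to turn.

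**Figure D1:**
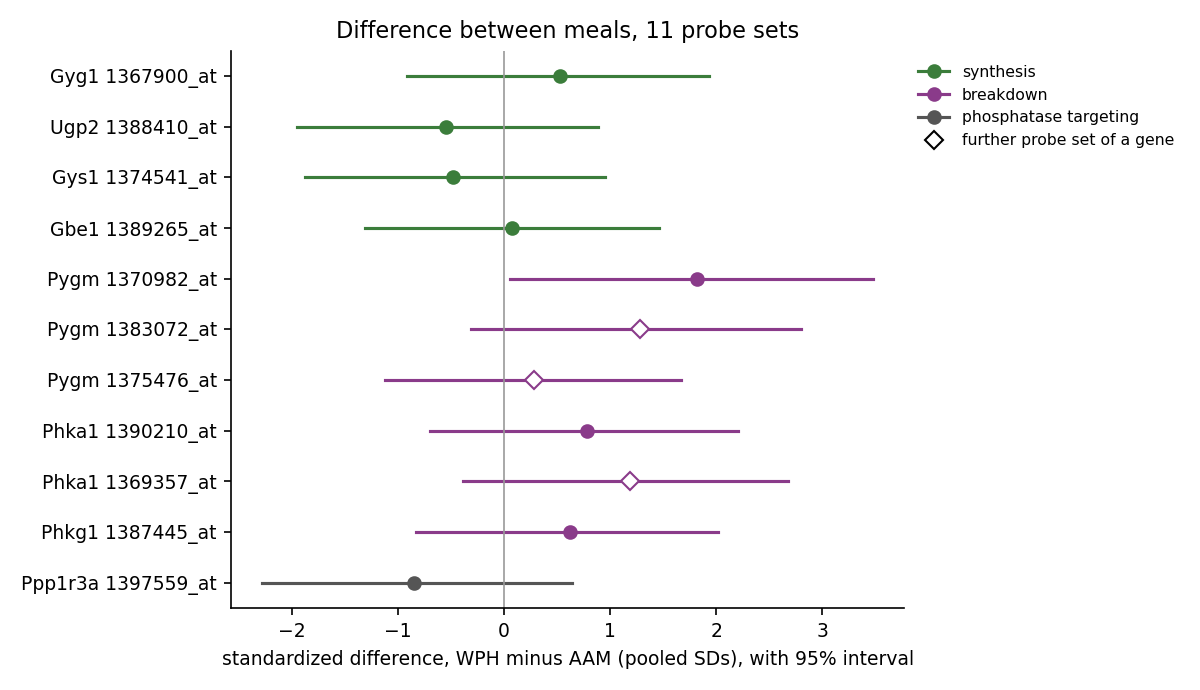
Standardized difference between meals (WPH minus AAM, in pooled SDs) for the 11 probe sets with 95% intervals (n = 4 arrays per group). Filled circles are the probe set of highest mean level of each gene and open diamonds the further ones; the interval of Pygm 1370982_at runs from 0.06 to 3.48 and the other 10 include 0.

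Among the breakdown genes, Pygm encodes the muscle isoform of glycogen phosphorylase, and its probe set 1370982_at had a mean level of 11.65. It lay at -2.04, 4.39, 17.1 and 15.2 millionths from its mean on WPH replicates 1 to 4, against -20.3, 3.09, -5.25 and -12.1 on AAM replicates 1 to 4. WPH replicates 2, 3 and 4 were above every AAM array, and WPH replicate 1 fell below AAM replicate 2 alone. The group means were 8.65 ± 9.06 millionths for WPH and -8.65 ± 9.96 millionths for AAM (SD, n = 4 each). The standardized difference was 1.82 (0.06 to 3.48), with limma's unadjusted p at 0.0334 and an exact permutation p of 0.0571, where 0.0286 is the smallest that 4 against 4 arrays can give. With 1 array left out in turn it stayed between 1.53 and 2.50, but limma's unadjusted p, from 0.0156 to 0.0836, was above 0.05 in 5 of the 8 fits, those without WPH replicate 3 or 4 or without AAM replicate 1, 3 or 4. That p was also above 0.05 with array weights (0.0517) and with each array centred on its median (0.771), where the standardized difference was 0.21.

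The other Pygm probe sets had the same sign with smaller standardized differences, though WPH minus AAM in millionths was larger (33.6 and 214.9 against 17.3). Probe set 1383072_at (mean level 10.44) lay at -8.70, -1.67, 47.0 and 30.7 millionths on WPH replicates 1 to 4, against -55.3, 1.26, -4.70 and -8.48 on AAM replicates 1 to 4. WPH replicates 3 and 4 were the highest arrays here as well, and AAM replicate 1 again the lowest. Its standardized difference was 1.28 (-0.31 to 2.80, exact permutation p = 0.2). A block for replicate number gave 1.91, with limma's unadjusted p at 0.0494.

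Probe set 1375476_at (mean level 9.18) varied far more, with an SD over the 8 arrays of 708 millionths that was larger than for 97.9% of all probe sets. Its deviations were -69.8, -1050, 798 and 747 millionths on WPH replicates 1 to 4, against -492, -334, -427 and 823 on AAM replicates 1 to 4. AAM replicate 4, low on the other Pygm probe sets, was the highest array here, and WPH replicate 2 the lowest. This gave a standardized difference of 0.28 (-1.12 to 1.67, exact permutation p = 0.743), and -0.02 without WPH replicate 3. The 3 probe sets of Pygm thus had 1 sign, but not 1 order of arrays.

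**Figure D2:**
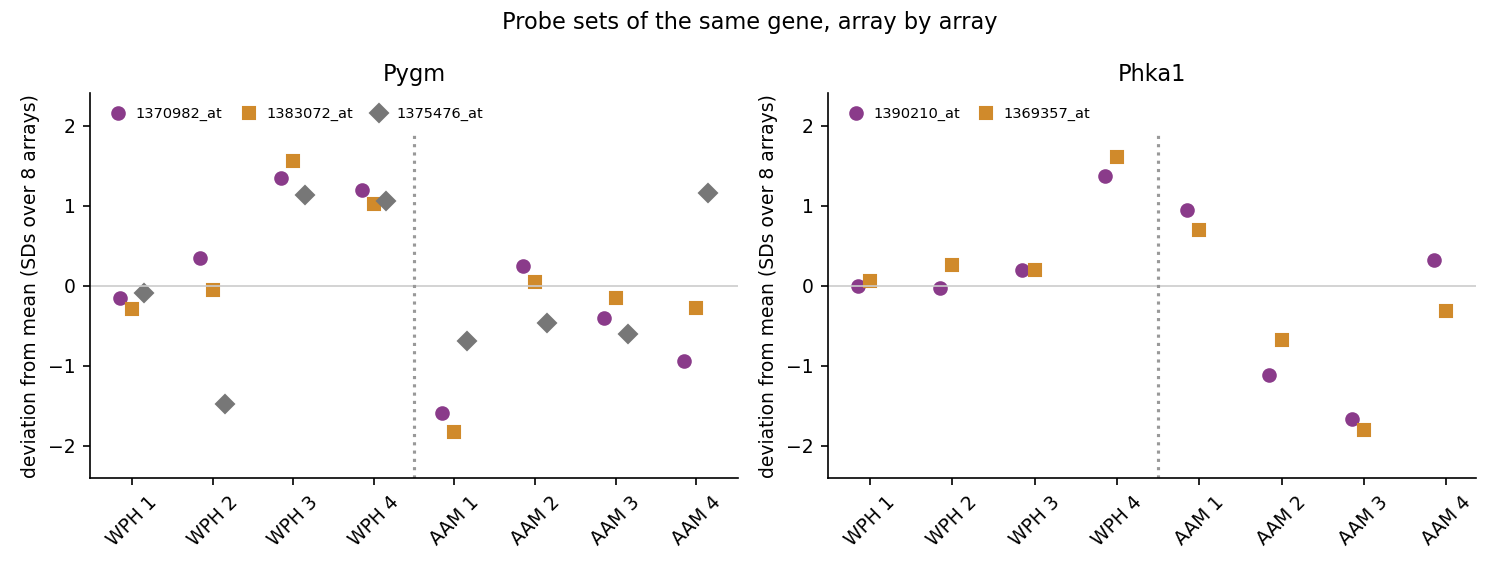
Deviation of each array from the probe set's mean, in SDs over the 8 arrays, for the 3 probe sets of Pygm and the 2 of Phka1, with the WPH arrays left of the dotted line and the AAM arrays right of it. WPH replicates 3 and 4 were above the mean on every Pygm probe set, while AAM replicate 4 was above it on 1375476_at alone; on both Phka1 probe sets WPH replicate 4 was the highest and AAM replicate 3 the lowest.

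Phka1 encodes the muscle isoform of the regulatory alpha subunit of phosphorylase kinase, the enzyme that activates phosphorylase. Its probe set 1390210_at (mean level 10.54) lay at -0.115, -0.325, 2.14 and 14.7 millionths on WPH replicates 1 to 4, against 10.1, -12.0, -17.9 and 3.38 on AAM replicates 1 to 4. WPH replicates 1 to 3 sat close together inside the AAM range and WPH replicate 4 stood above it. The standardized difference was 0.78 (-0.70 to 2.20, exact permutation p = 0.286).

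The second Phka1 probe set, 1369357_at (mean level 8.44), showed nearly the same layout. It lay at 0.514, 2.53, 1.95 and 16.0 millionths on WPH replicates 1 to 4, against 6.87, -6.73, -17.9 and -3.22 on AAM replicates 1 to 4. Its standardized difference was 1.19 (-0.39 to 2.68, exact permutation p = 0.171), and -0.04 with each array centred on its median. Without AAM replicate 1 it was 1.96, with limma's unadjusted p at 0.0383.

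Phkg1 encodes the muscle isoform of the catalytic gamma subunit of the same kinase. Its probe set 1387445_at (mean level 8.37) lay at 23.7, 11.1, -3.32 and 18.1 millionths on WPH replicates 1 to 4, against 27.6, -81.3, -33.7 and 37.8 on AAM replicates 1 to 4. The AAM arrays spread on both sides of all WPH arrays, with an SD of 11.7 millionths after WPH and 55.8 after AAM. The standardized difference was 0.62 (-0.83 to 2.02, exact permutation p = 0.486), and without AAM replicate 2, the lowest array, it was 0.07.

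**Figure D3:**
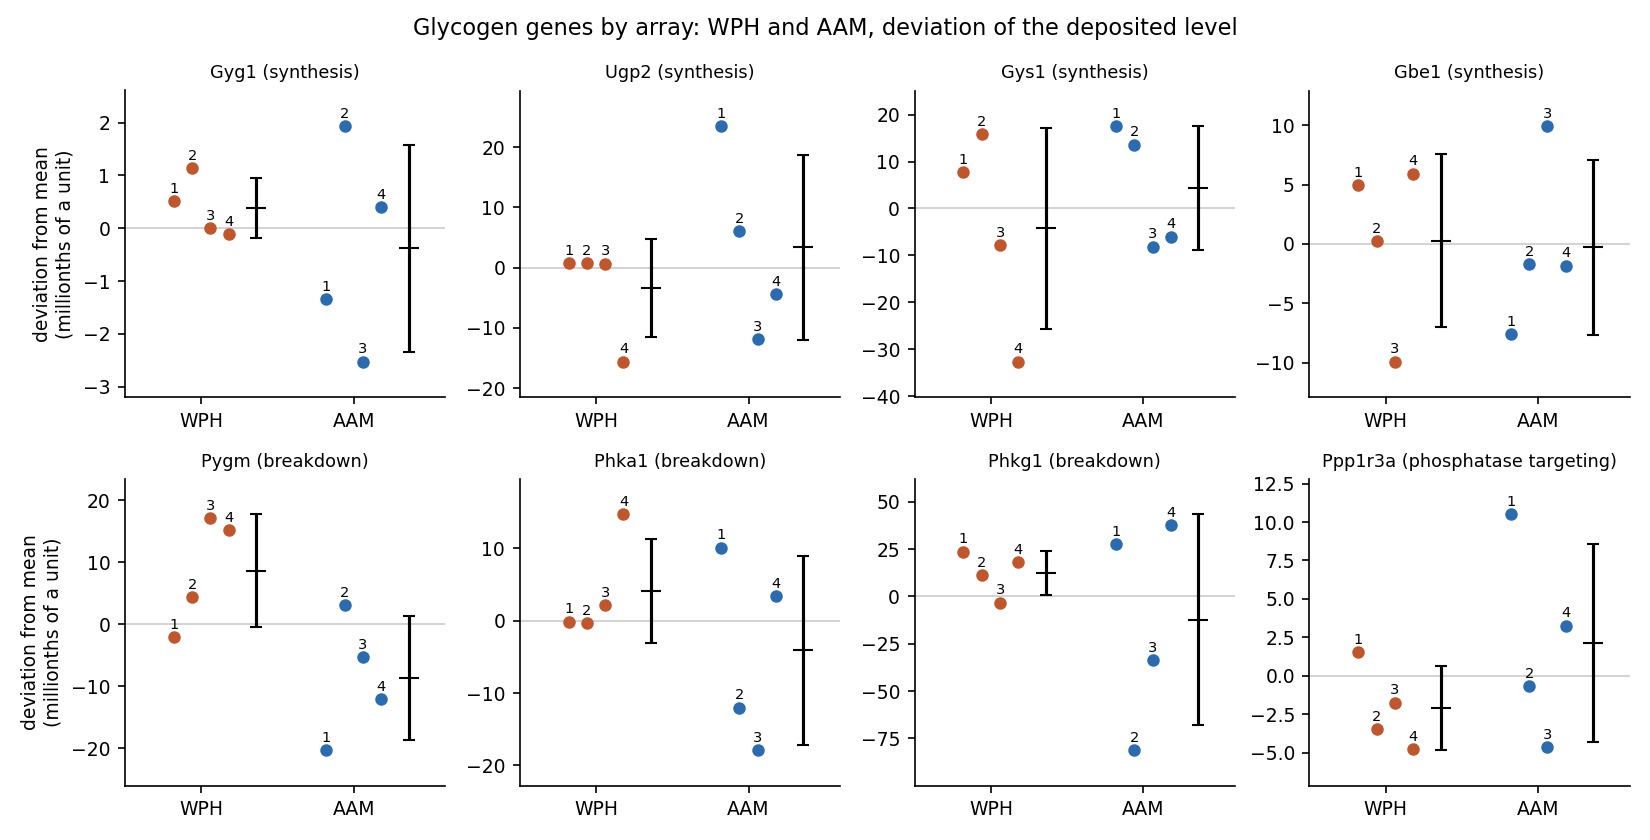
Deviation of the deposited level from the probe set's mean over 8 arrays, in millionths of a unit, for 1 probe set per measured gene, with WPH left of AAM. Each point is 1 array with its replicate number and bars are the mean ± SD (n = 4); the vertical scales differ between panels, and the groups overlap in all 8.

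Among the synthesis genes, Gys1 encodes the muscle isoform of glycogen synthase. Its probe set 1374541_at (mean level 10.32) lay at 7.70, 15.8, -7.86 and -32.7 millionths on WPH replicates 1 to 4, against 17.6, 13.6, -8.14 and -6.00 on AAM replicates 1 to 4. WPH replicate 4 was the lowest array, and the other 3 WPH arrays lay inside the AAM range. Gys1 had a standardized difference of -0.48 (-1.87 to 0.95, exact permutation p = 0.514). Without WPH replicate 4 it turned to 0.07, so 1 array set its sign.

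Gyg1 encodes glycogenin, the protein primer on which a glycogen chain is started. Its probe set 1367900_at (mean level 12.24) lay at 0.516, 1.14, -0.00375 and -0.114 millionths on WPH replicates 1 to 4, against -1.34, 1.94, -2.53 and 0.406 on AAM replicates 1 to 4. It varied least of the members, with an SD over the 8 arrays of 1.40 millionths, and all 4 WPH arrays lay inside the AAM range. Gyg1 had a standardized difference of 0.53 (-0.91 to 1.93, exact permutation p = 0.486). It was 1.49 without AAM replicate 2 and 0.05 without AAM replicate 3.

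Ugp2 encodes UDP-glucose pyrophosphorylase, which makes the glucose donor of the synthase. Its probe set 1388410_at (mean level 13.00) lay at 0.764, 0.714, 0.654 and -15.6 millionths on WPH replicates 1 to 4, against 23.5, 6.06, -11.8 and -4.34 on AAM replicates 1 to 4. WPH replicates 1 to 3 differed from each other by less than 1 millionth and WPH replicate 4 was the lowest of the 8 arrays. For Ugp2 the standardized difference was -0.55 (-1.95 to 0.89, exact permutation p = 0.486). It was -0.00 without AAM replicate 1, the highest array, -0.22 without WPH replicate 4 and -1.08 without AAM replicate 3.

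Gbe1 encodes the branching enzyme. Its probe set 1389265_at (mean level 11.44) lay at 4.96, 0.215, -9.93 and 5.91 millionths on WPH replicates 1 to 4, against -7.59, -1.71, 9.95 and -1.82 on AAM replicates 1 to 4. The group means nearly coincided, at 0.29 ± 7.26 millionths for WPH and -0.29 ± 7.36 millionths for AAM (SD, n = 4 each). Their standardized difference was 0.08 (-1.31 to 1.46, exact permutation p = 0.943), and its sign turned without AAM replicate 1 (-0.26), WPH replicate 1 (-0.13) or WPH replicate 4 (-0.17).

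Ppp1r3a encodes the muscle subunit that binds protein phosphatase 1 to glycogen and to the sarcoplasmic reticulum. Its probe set 1397559_at (mean level 12.14) lay at 1.55, -3.49, -1.74 and -4.76 millionths on WPH replicates 1 to 4, against 10.5, -0.658, -4.64 and 3.25 on AAM replicates 1 to 4. All 4 WPH arrays lay below the AAM mean, but only WPH replicate 4 was below the lowest AAM array. The standardized difference was -0.85 (-2.28 to 0.64, exact permutation p = 0.286). It kept its sign with any 1 array left out, between -1.56 and -0.44.

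**Figure D4:**
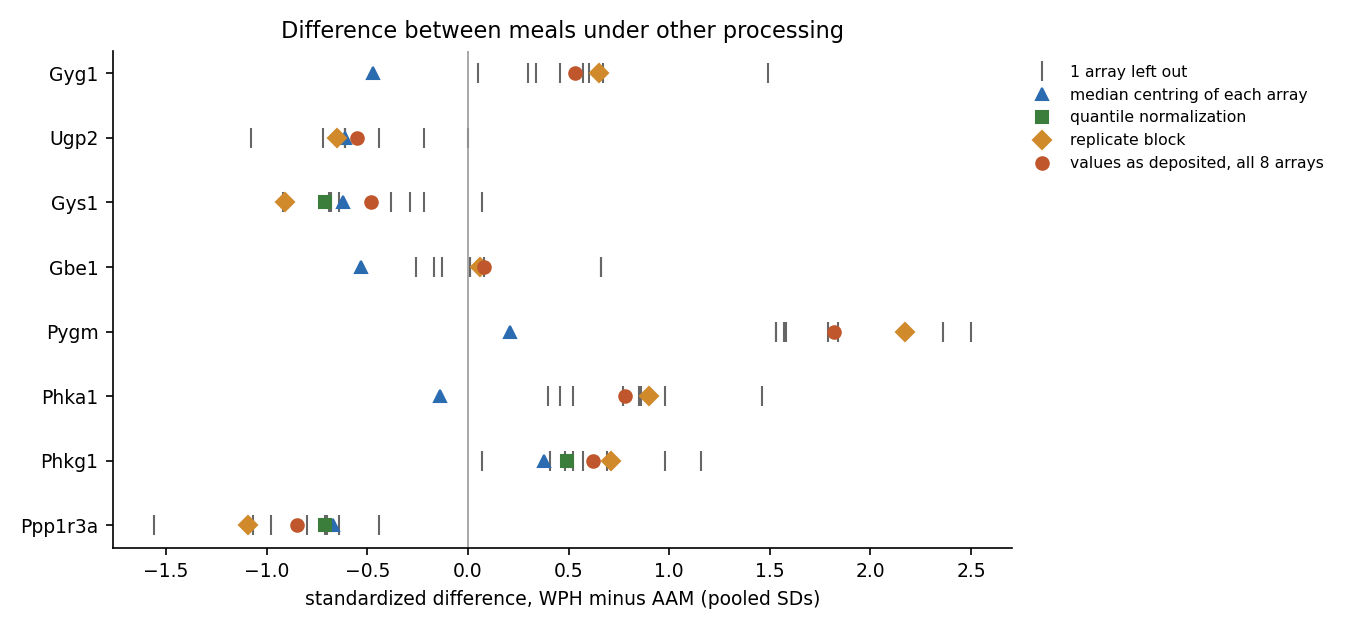
Standardized difference between meals, WPH minus AAM in pooled SDs, for the 8 measured genes as deposited, with each array centred on its median, after quantile normalization, with a block for the replicate number and with each array left out in turn. Pygm, Phkg1 and Ppp1r3a kept their sign in every setting drawn, as did Ugp2, whose value without AAM replicate 1 was -0.00, and Gyg1, Gbe1 and Phka1 turned with median centring; quantile normalization has no mark for 5 genes, whose values it made the same on all arrays.

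Fast and slow fibre marker scores were furthest apart on WPH replicates 3 and 4, the highest arrays for 2 of the 3 Pygm probe sets. Of 8 measured fast fibre markers of a list of 9, 7 had a higher mean after WPH, and of 7 slow fibre markers 1 did. As deposited, 46.1% of all named genes did. With each array centred on its median, 1 of 8 and 1 of 7 did, against 11.2% of all named genes. The fast fibre score, the mean z-score of the list over the 8 arrays, was 0.0859, -0.317, 0.37 and 1.04 on WPH replicates 1 to 4, against -0.444, -0.094, -0.67 and 0.0247 on AAM replicates 1 to 4. The slow fibre score was 0.933, 0.891, -1.30 and -1.28 on WPH replicates 1 to 4, against -0.0905, -0.519, 0.276 and 1.09 on AAM replicates 1 to 4. WPH replicates 3 and 4 thus had the highest fast fibre scores and the lowest slow fibre scores, while AAM replicate 4, the highest array for the third Pygm probe set, 1375476_at, had the highest slow fibre score. High scores on these arrays were not particular to the fibre lists. WPH replicate 4 was also highest for skeletal muscle (1.11), macrophages (1.17) and fibroblasts and matrix (1.45), and WPH replicate 3 for endothelium (0.958) and erythrocytes (1.11). An AAM array was highest for adipocytes (1.11), liver (1.1) and nerve (1.38). The summed level of the fast fibre list ran from 105.2053 to 105.2062 after WPH and from 105.2050 to 105.2057 after AAM, and that of the slow fibre list from 75.1462 to 75.2162 and from 75.1702 to 75.2222. Their part in the Pygm values was not tested. In whole muscle, a change in the share of a fibre type and a change in RNA per fibre cannot be told apart.

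Markers of the labelled tissue had high levels. The 5 skeletal muscle markers had mean levels from 12.77 for Des to 14.24 for Acta1, and the 8 fast fibre markers from 11.33 for Myh1 to 14.01 for Tnnt3. The 5 liver markers, among them the liver isoforms Gys2 and Pygl, had mean levels from 5.82 to 6.70, against a lowest value of 5.28 in the table and an array median of 6.66. No detection call was among the values used. Of the lists of other cell types, the WPH and AAM scores were 0.246 ± 0.502 and -0.246 ± 0.841 for endothelium, 0.0944 ± 0.883 and -0.0944 ± 0.914 for macrophages, and -0.00273 ± 1.25 and 0.00273 ± 0.595 for fibroblasts and matrix. They were -0.207 ± 0.752 and 0.207 ± 0.884 for adipocytes, 0.00158 ± 1.06 and -0.00158 ± 0.777 for erythrocytes, 0.0963 ± 0.764 and -0.0963 ± 1.08 for nerve, and -0.123 ± 0.61 and 0.123 ± 0.897 for liver (SD, n = 4 each).

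The wider glycogen pathway had no gene with an adjusted p below 0.05 either. Directions here are for the values as deposited, for which 46.1% of all named genes had a higher mean after WPH. With each array centred on its median, 11.2% of all named genes were higher after WPH. In the 5 lists below it was then 2 of 7, 3 of 7, 3 of 10, 5 of 18 and 0 of 4 genes. Of 7 other genes of synthesis and glucose phosphate handling, 5 had a higher mean after WPH (median 0.34). Named by the smallest unadjusted p-values, Pgm1, which interconverts glucose phosphates, had a standardized difference of 1.01 (-0.52 to 2.47), Ugdh, which oxidises UDP-glucose, 0.89, and the liver synthase gene Gys2 -0.56. Of 7 measured genes among 11 others of breakdown, 3 had a higher mean (median -0.04). Phka2, the liver isoform of the kinase's alpha subunit, had -3.02 (-5.14 to -0.81), with all 4 WPH arrays below all 4 AAM arrays (exact permutation p = 0.0286, limma's unadjusted p = 0.0883). That difference was -0.715 ± 0.168 millionths (SE, n = 4 per group) at a mean level of 6.25, below the array median. Groups did not overlap for 1 of these 7 breakdown genes, against 284 of all 14217 named genes. Calm2, encoding calmodulin, which is also the delta subunit of the kinase, had 1.03, and Phkb, its beta subunit gene, 0.94.

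The phosphatase and scaffold genes included 10 measured of a list of 13, of which 6 had a higher mean after WPH (median 0.25). Ppp1cb, a catalytic subunit of protein phosphatase 1, had a standardized difference of 1.67 (-0.04 to 3.29), with the 4 WPH arrays all above the 4 AAM arrays (exact permutation p = 0.0286, limma's unadjusted p = 0.0454). Its WPH minus AAM was 11.06 millionths, less than the 11.7 that median centring subtracts, so its sign turns there. Groups did not overlap for 1 of these 10 genes, against 284 of all 14217 named genes. Ppp1r3b, a glycogen-targeting subunit best known from liver, had 1.79 (0.04 to 3.45, exact permutation p = 0.0571), but only 1 of its 2 probe sets had that sign. Ppp1r1a, a phosphatase inhibitor, had 0.88.

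Kinases that act on glycogen enzymes were all measured, and 11 of 18 had a higher mean after WPH (median 0.30). Prkab1, a beta subunit of the energy-sensing kinase AMPK, had a standardized difference of -1.66 (-3.28 to 0.05, exact permutation p = 0.0571), and Prkag2, one of its gamma subunits, 1.35, with that sign in 3 of its 4 probe sets. Gsk3a, a kinase that inactivates glycogen synthase, had 1.01. For Gsk3a WPH minus AAM was 1.27 millionths, so its sign also turns with median centring. Of the 4 measured genes of glucose supply, none had a higher mean after WPH, and their median was -0.26. The glucose transporter genes Slc2a1 and Slc2a4 had -0.60 and -0.40, and Tbc1d1, which encodes a regulator of transporter traffic, -0.12, and of Slc2a4 and Tbc1d1 only 1 of 2 probe sets each had that sign.

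**Figure D5:**
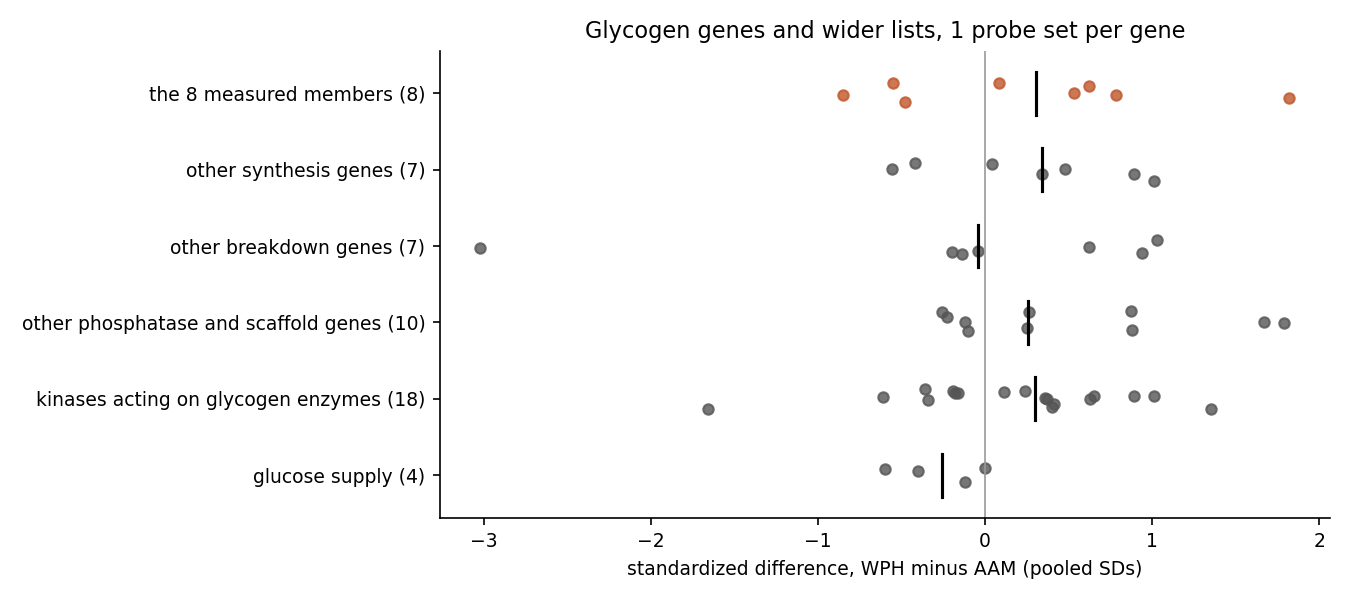
Standardized difference between meals, WPH minus AAM in pooled SDs, with 1 point per gene for the 8 measured glycogen genes and 5 wider lists, whose number of measured genes is in brackets; vertical bars are medians. The medians lie between -0.26 for glucose supply and 0.34 for the other synthesis genes, and the lowest point is Phka2 at -3.02.

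Genes with the array pattern most like those of Pygm and Gys1 were taken from all 14216 other named genes by Pearson's r over the 8 arrays. For Pygm they were Parva (r = 0.977, Spearman's rho = 1.0), Svs6 (0.973 and 0.905) and Ammecr1l (0.967 and 0.976). Without AAM replicate 1 and WPH replicate 3, the arrays farthest from the median of Pygm, r was 0.967, 0.933 and 0.911. For Gys1 they were Mcfd2 (0.966 and 0.905), Gpr37l1 (0.965 and 0.905) and Lonp2 (0.957 and 0.929), with r of 0.905, 0.95 and 0.866 without WPH replicate 4 and AAM replicate 1. Svs6 (mean level 5.69) and Gpr37l1 (6.37) lay below the array median of 6.66. No p is given, since these genes were picked for the highest r.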

How the data were processed

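The authors' deposited values were used, 1 log2-like level per probe set and array, measured with biotin-labelled RNA made, per the labels' protocols, from 100 ng of RNA. The submitters' processing notes name R 2.7.2. Their background correction, normalization and summary are not described in the sources used here, and the true scale and centring of the deposited log2 values stay unknown. Array medians were all 6.66 and differed by up to 66.7 millionths. No arrays held the same values. The number of arrays limits the precision.

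Groups came from the sample labels, which call the samples biological replicates. After 57 control probe sets were left out, 31042 were tested, of which 20826 had 1 symbol, 436 several and 9780 were unnamed here. WPH was compared with AAM by limma 3.58.1 in R 4.3.3 (lmFit, eBayes, prior df 0.549), Benjamini-Hochberg adjusted over all probe sets. The procedure was tested on simulated data, with shifts larger than the standardized difference of any member. That test cannot show whether differences of the members' size would be found. A noncentral t distribution (6 degrees of freedom) gave the intervals, and SciPy 1.17.1 the exact permutation tests over all 35 splits into 4 and 4. Promoters are RefSeq's (GRCr8), matched by symbol for 9 of 9 members.

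The members, lists and tests were chosen with earlier results of these data known. All member probe sets are named, with up to 3 genes per wider list by smallest p and the 3 genes most like Pygm and Gys1. Replicate numbers were not taken to pair rats, since the sources used here do not say that they do. The alternatives tried were each array left out in turn, median centring, quantile normalization, a block for the replicate number, array weights, a trended and robust prior, only the brighter probe sets, 1 probe set per gene, and a threshold of 0.1.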

Additional observations from a re-analysis of the deposited data

Results flagged for a closer look

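Dixon's ratio of gap to range singled out an array in 4 of the 22 groups of 4 arrays tested, where chance gives about 1 in 20 groups, or 1.1 here. WPH replicate 4 was low for Ugp2 (0.993) and high for both probe sets of Phka1, 1390210_at (0.837) and 1369357_at (0.87). AAM replicate 4 was high for the Pygm probe set 1375476_at (0.879). Both Phka1 probe sets are annotated to 1 gene.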

How the results depend on the processing

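No member probe set had an adjusted p below 0.05 under any alternative run. Over all probe sets, the count of 0 stayed at 0 except with quantile normalization, which gave 5, none of them a member; each of the 5 had a single value within each group, so their spread was 0. Quantile normalization made 5 of the 8 measured genes (Gyg1, Ugp2, Gbe1, Pygm, Phka1) the same on all arrays, and no standardized difference exists for them there; on further probe sets it gave 0.48 for Pygm 1375476_at, -1.22 for Pygm 1383072_at, which kept only 2 distinct values over the 8 arrays, and -0.35 for Phka1 1369357_at, which kept 3. Median centring turned Gyg1 to -0.47, Gbe1 to -0.53 and Phka1 to -0.14. The array medians were higher after WPH than after AAM by 11.7 millionths, more than the difference between meals of 6 of the 8 measured genes. Centring subtracts this amount from every difference, so these turns follow from the subtraction alone. With 1 array left out, the counts of calls ranged from 0 to 0, and the standardized differences from -0.92 to 0.07 for Gys1 and from -0.26 to 0.66 for Gbe1; the signs of the other 6 held, from -1.08 to -0.00 for Ugp2, 0.05 to 1.49 for Gyg1, 1.53 to 2.50 for Pygm, 0.40 to 1.46 for Phka1, 0.07 to 1.16 for Phkg1 and -1.56 to -0.44 for Ppp1r3a. With the replicate number as a block the counts stayed at 0, and Pygm had 2.17, Gys1 -0.91 and Ppp1r3a -1.09. Each WPH array's deviations from its group mean correlated with those of the same-numbered AAM array at 0.157, 0.134, 0.064 and -0.0708 for replicates 1 to 4, against at most 0.129, 0.0954, 0.0346 and 0.279 with another AAM array. The same-numbered AAM array was thus the closest for replicates 1, 2 and 3, by small margins. For replicate 4 another AAM array was closer, with the largest of these correlations, 0.279. Whether the numbers pair rats was not tested. For signs that turned with 1 array left out, the cause was not tested.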

Other observations

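Of the 11 member probe sets, AAM replicate 1 was the highest array for 3, WPH replicate 3, WPH replicate 4 and AAM replicate 4 for 2 each, and AAM replicates 2 and 3 for 1 each. WPH replicate 4 and AAM replicate 3 were the lowest array for 3 each, AAM replicate 1 for 2, and WPH replicates 2 and 3 and AAM replicate 2 for 1 each. WPH replicate 4 was highest for both Phka1 probe sets and lowest for Gys1, Ugp2 and Ppp1r3a, and AAM replicate 1 was highest for Gys1, Ugp2 and Ppp1r3a and lowest for 2 of the 3 Pygm probe sets. Over all 31042 probe sets, the share for which an array was the highest ran from 9.62% for WPH replicate 2 to 16.0% for AAM replicate 3, and the share for which it was the lowest from 8.85% for AAM replicate 2 to 17.2% for AAM replicate 3. WPH replicate 1 was neither the highest nor the lowest array for any of the 11.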
